A study of Mus musculus with 12 samples.

Results

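Checkpoint receptors, their ligands and regulatory T cell genes were measured by RNA sequencing in whole mouse colons from a model of colitis-associated cancer. The 10 genes were taken by symbol from a list: the receptors Pdcd1, Ctla4, Havcr2, Lag3, Tigit and Icos, the transcription factors Foxp3 and Tox, and the ligands Cd274 and Pdcd1lg2. All 10 were found among the 30263 genes of the colon tables, and all 10 passed the filter on low counts that left 17195 genes to test. Total colons came from C57BL/6 mice labelled S1PR4 KO (3 libraries) or WT (3 libraries), S1PR4 being a receptor of leukocytes that binds the lipid sphingosine 1-phosphate. Both groups had received azoxymethane (AOM, a carcinogen, 10 mg/kg) and dextran sulfate sodium (DSS, 0.5%, an agent toxic to the epithelium), and both were sampled at day 84. The series also holds CD8+ T cells sorted from PyMT mammary tumors. Their tables list 357 genes and 0 of the 10 members, so the comparison is of colons alone. No label ties a replicate to its own animal, so p-values measure the spread between these samples, part of which may be technical.

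Checkpoint receptors are brakes that activated T cells put on their surface. PD-1 (Pdcd1) is engaged by PD-L1 (Cd274) and PD-L2 (Pdcd1lg2), and CTLA-4 competes with the activating receptor CD28 for CD80 and CD86. Foxp3 is the defining transcription factor of regulatory T cells, which carry much CTLA-4, TIGIT and ICOS and restrain inflammation in the gut. Tox is a DNA-binding factor that sustains the exhausted state of T cells after long stimulation.

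The ligand genes Cd274 and Pdcd1lg2 are neighbours on mouse chromosome 19, 22.8 kb apart. Of the 10 genes, Cd274 had the lowest and Pdcd1lg2 the highest fitted difference. Their promoters are therefore shown, as the 250 bases before the annotated start (RefSeq, build GRCm38.p6, plus strand), with each CpG in capitals. That of Cd274 lies at chr19:29367188-29367437 and that of Pdcd1lg2 at chr19:29410669-29410918.
Cd274: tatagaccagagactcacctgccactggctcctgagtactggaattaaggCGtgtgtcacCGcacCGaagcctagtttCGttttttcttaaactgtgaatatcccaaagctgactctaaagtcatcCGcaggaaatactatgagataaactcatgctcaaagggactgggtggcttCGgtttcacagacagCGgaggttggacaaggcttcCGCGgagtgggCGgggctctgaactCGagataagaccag
Pdcd1lg2: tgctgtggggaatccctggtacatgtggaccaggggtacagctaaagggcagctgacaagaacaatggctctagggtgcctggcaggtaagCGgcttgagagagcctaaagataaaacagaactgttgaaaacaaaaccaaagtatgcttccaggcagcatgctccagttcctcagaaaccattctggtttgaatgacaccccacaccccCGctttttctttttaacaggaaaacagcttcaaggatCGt

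The Cd274 window held 11 CpGs and the Pdcd1lg2 window 3, where the median of 32851 promoter windows of that length was 6, and 92.1% held at least 1. Fewer CpGs than in the Cd274 window were found in 64.4% of all windows, and fewer than in the Pdcd1lg2 window in 29%. A search on both strands for the gamma interferon activated site TTCNNNGAA found 0 matches in either window, against 7.02% of all windows with a match. The core of the interferon-stimulated response element (GAAA, any 2 bases, GAAA) likewise had 0 matches in either, against 2.98% of all windows. Promoters were listed for 7 of the 10 members.

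The colon libraries held 7304082 to 7919107 counts in those labelled KO and 7492925 to 8652561 in those labelled WT. S1pr4, the gene named in the knockout, was counted in every library and was higher in those labelled KO. KO replicates 1 to 3 had 154, 162 and 118 S1pr4 reads, against 61, 47 and 25 reads in WT replicates 1 to 3 (DESeq2 adjusted p = 0.00442, edgeR adjusted p = 0.829). Whether those reads fall in the deleted part is not given here, so every direction below rests on the labels. KO replicates 2 and 3 and WT replicate 1 held Xist, a transcript of female cells, at 515 to 591 CPM (counts scaled to library size). The other 3 libraries held it at 0.894 to 6.75 CPM with Ddx3y, a gene of the Y chromosome, between 63.3 and 81.1 CPM. Each group therefore came from more than 1 animal. The Xist-high set holds 1 WT library and the Y-linked set 1 KO library, so the differences within a set, given beside each member, each rest on a single library on one side. The libraries were those of colon epithelium with immune cells and muscle: summed epithelial markers ran from 1914 to 1982 CPM in those labelled KO and from 1731 to 2041 CPM in those labelled WT.

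No member passed edgeR's quasi-likelihood test over the whole colon table, and nor did any other gene. The test called 0 of 17195 genes (0%) after Benjamini-Hochberg adjustment, and 870 genes (5.06%) had an unadjusted p under 0.05. Among the members, Pdcd1lg2 was the 1 gene with an unadjusted p under 0.05. DESeq2 called 14 of 21975 genes (0.0637%), and 0 of the 10 members were among them. Fitted differences nevertheless leaned to one side: 9 of the 10 members had a higher level in colons labelled KO, where 49% of all tested genes did. The median log2 difference of the members was 0.36, beside -0.0045 over all tested genes. The members were read from the same 6 libraries and several mark the same cells, so they are not independent of each other. Levels of Pdcd1lg2, Foxp3 and Tox did not overlap between the groups and were higher in KO, 3 members of 10, where 4.55% of all tested genes had groups apart in that direction. In whole colon, more cells of a type and more RNA per cell cannot be told apart.

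**Figure D1:**
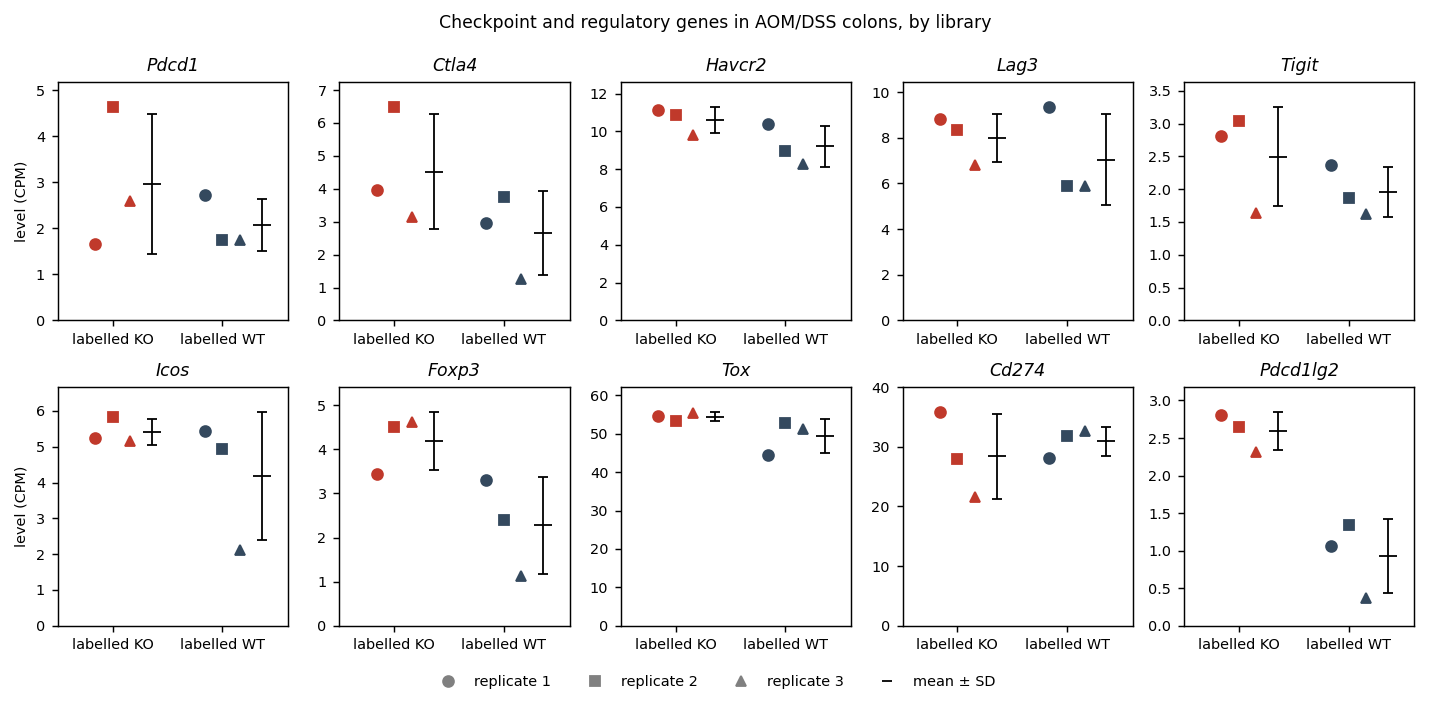
Level of each of the 10 genes (CPM) in the 6 colon libraries, with the mean and SD of each group (n = 3). The KO points lie above every WT point for Pdcd1lg2 (2.31 to 2.81 CPM in KO, 0.375 to 1.34 CPM in WT), Foxp3 and Tox, and the groups overlap for the other genes.

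Pdcd1lg2 encodes PD-L2, a ligand of PD-1 found mainly on dendritic cells and macrophages. It stood at 2.81, 2.65 and 2.31 CPM in colons labelled KO and at 1.06, 1.34 and 0.375 CPM in those labelled WT. All 3 KO libraries lay above all 3 WT libraries. These levels rest on 22, 20 and 17 reads in KO and on 9, 10 and 3 reads in WT, and the exact 95% Poisson interval of the lowest count ran from 0.619 to 8.77. The mean was 2.59 ± 0.252 CPM in KO and 0.926 ± 0.496 CPM in WT (SD, n = 3 each). The fitted log2 difference was 1.47 ± 0.44 (SE), a 2.78-fold higher level in KO, with edgeR's adjusted p = 0.829 and an unadjusted p = 0.0141. It stayed between 1.11 (without WT replicate 3) and 1.82 (without WT replicate 2) when any library was left out. Compared among Xist-high libraries alone KO exceeded WT by 1.18, and among Y-linked libraries alone by 1.87 (log2). Pdcd1lg2 (ENSMUSG00000016498, chromosome 19, 29410919 to 29471161, plus strand) shares no exon base with another annotated gene.

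Cd274 encodes PD-L1, the broadly expressed ligand of PD-1, which epithelial and myeloid cells can carry. It was the member with the highest level per exon length in both groups, and the 1 member whose fitted level was lower in KO. Its levels were 35.8, 27.9 and 21.5 CPM in colons labelled KO and 28.2, 31.8 and 32.6 CPM in those labelled WT. The KO libraries held both the highest and the lowest of the 6 values, and the groups overlapped. The log2 difference was -0.12 ± 0.20 (SE, edgeR adjusted p = 0.916), smaller than its error, and it was 0.05 without KO replicate 3. The difference was -0.20 among Xist-high libraries and 0.15 among Y-linked ones (log2). Cd274 (ENSMUSG00000016496, chromosome 19, 29367455 to 29388095, plus strand) shares 14.1% of its exon bases with an antisense gene. Whether counting used strand was not stated, so reads of such partners cannot be told apart.

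Foxp3 stood at 3.45, 4.50 and 4.63 CPM in colons labelled KO and at 3.31, 2.41 and 1.13 CPM in those labelled WT. The groups did not overlap, though KO replicate 1 and WT replicate 1 lay close together, at 27 and 28 reads. The mean was 4.19 ± 0.648 CPM in KO and 2.28 ± 1.10 CPM in WT (SD, n = 3 each), a log2 difference of 0.87 ± 0.41 (SE, edgeR adjusted p = 0.829, unadjusted p = 0.0754). Without WT replicate 3, which had the fewest reads (9), the difference was 0.56, and without WT replicate 1 it was 1.26 (log2). It was positive within both sets of libraries, at 0.46 in the Xist-high and 1.03 in the Y-linked (log2). Foxp3 (ENSMUSG00000039521, X chromosome, 7573644 to 7595245, plus strand) shares exon bases with 4 other genes. Of these, Ppp1r3f had 10, 3 and 7 reads in KO and 10, 12 and 5 in WT, and Flicr, a long noncoding RNA on the same strand, had 2, 5 and 4 reads in KO and 2, 4 and 2 in WT. Foxp3 itself had 27, 34 and 34 reads in KO and 28, 18 and 9 in WT, so in WT replicates 2 and 3 Ppp1r3f held more than 0.5 reads for each Foxp3 read. Any reads shared between them could not be separated. The other overlapping genes, Ccdc22 and Gm36995, held at most 2 reads in any library.

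Ctla4, whose product takes CD80 and CD86 away from CD28, stood at 3.96, 6.48 and 3.13 CPM in colons labelled KO and at 2.96, 3.74 and 1.25 CPM in those labelled WT. KO replicate 2 was the highest and WT replicate 3 the lowest, and the groups overlapped between them. The log2 difference was 0.77 ± 0.48 (SE, edgeR adjusted p = 0.829). Leaving out KO replicate 2 gave 0.42 and leaving out WT replicate 3 gave 0.44, and it was positive within the Xist-high (0.60) and the Y-linked libraries (0.85).

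Icos, a costimulatory receptor of helper and regulatory T cells, lies next to Ctla4 on chromosome 1, 62.1 kb away. Its levels were 5.23, 5.82 and 5.17 CPM in colons labelled KO and 5.44, 4.95 and 2.13 CPM in those labelled WT. WT replicate 3 alone lay outside a narrow range that the other 5 libraries shared. The log2 difference of 0.37 ± 0.37 (SE, edgeR adjusted p = 0.870) was 0.07 without that library and 0.63 without WT replicate 1. It was 0.01 among Xist-high libraries and 0.68 among Y-linked ones.

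Pdcd1, the receptor of both ligands, stood at 1.66, 4.63 and 2.59 CPM in colons labelled KO and at 2.72, 1.74 and 1.75 CPM in those labelled WT. KO replicate 2 was the highest and KO replicate 1 the lowest of all 6. The log2 difference was 0.51 ± 0.44 (SE, edgeR adjusted p = 0.858) and dropped to 0.03 when KO replicate 2 was left out. Leaving out KO replicate 1 gave 0.79 and leaving out WT replicate 1 gave 0.77. It was 0.35 among Xist-high libraries and -0.07 among Y-linked ones. Pdcd1 levels were higher in each Xist-high library than in any Y-linked one.

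Tigit, a receptor for the nectin-like molecule PVR on T and natural killer cells, stood at 2.81, 3.04 and 1.63 CPM in colons labelled KO and at 2.37, 1.87 and 1.63 CPM in those labelled WT. Replicate 3 was the lowest library of either group. Its log2 difference of 0.35 ± 0.33 (SE, edgeR adjusted p = 0.864) was -0.08 among Xist-high libraries and 0.67 among Y-linked ones. Leaving out KO replicate 2 gave 0.18, leaving out KO replicate 3 gave 0.58 and leaving out WT replicate 1 gave 0.52.

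Lag3, a CD4-like receptor that binds MHC class II, stood at 8.81, 8.33 and 6.81 CPM in colons labelled KO and at 9.34, 5.88 and 5.88 CPM in those labelled WT. WT replicate 1 was the highest of all 6 libraries. Its log2 difference of 0.18 ± 0.27 (SE, edgeR adjusted p = 0.902) was 0.45 without that library and 0.07 without WT replicate 2. Among Xist-high libraries the difference was -0.31, and among Y-linked ones 0.58. No member passed an edgeR test of the difference between the sets (lowest adjusted p = 0.303, Lag3), which rests on 1 library in 2 of its 4 combinations of set and label and shows no likeness of the sets.

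Havcr2 encodes TIM-3, a receptor of exhausted T cells that macrophages and dendritic cells also carry. It stood at 11.1, 10.9 and 9.80 CPM in colons labelled KO and at 10.4, 8.96 and 8.25 CPM in those labelled WT. The groups overlapped by WT replicate 1, and the log2 difference was 0.20 ± 0.18 (SE, edgeR adjusted p = 0.859). It was 0.31 without WT replicate 1, -0.01 among Xist-high libraries and 0.37 among Y-linked ones.

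Tox was the steadiest of the 10, at 54.8, 53.3 and 55.4 CPM in colons labelled KO and at 44.5, 52.8 and 51.3 CPM in those labelled WT. The lowest KO library lay just above the highest WT library. The log2 difference was 0.14 ± 0.10 (SE, edgeR adjusted p = 0.834), a 1.10-fold higher level in KO, and it was 0.08 without WT replicate 1. It was 0.29 among Xist-high libraries and 0.07 among Y-linked ones. An antisense gene, Gm11802, shares 3.42% of its exon bases and had 1 read in all. In CPM, Tox stood in every library above the summed level of Cd3d, Cd3e, Cd3g and Cd247, chains of the T cell receptor complex (8.75 to 25.5 CPM). CPM is not divided by exon length, and Tox has 7609 exon bases against 1815 (Cd3d) to 5329 (Cd247) in those chains. The order in CPM therefore does not rank their amounts of RNA. WT replicate 3 had the lowest sum of those chains but not the lowest Tox. Which cells of the colon held Tox was not tested.

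**Figure D2:**
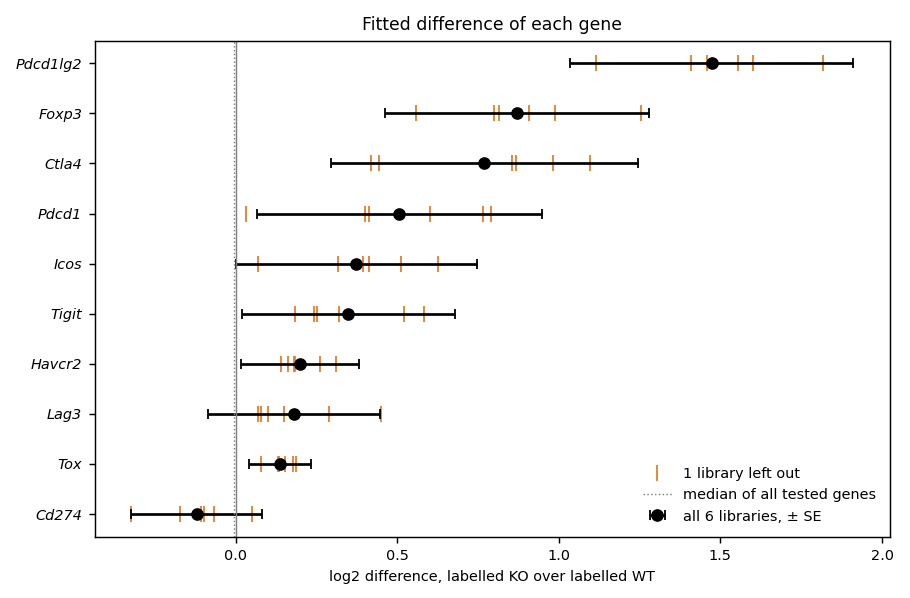
Fitted log2 difference of each gene, labelled KO over labelled WT, with its SE (points and bars) and the values with 1 library left out (ticks). The difference stays above 0 in every such fit for 9 genes, from 1.11 to 1.82 for Pdcd1lg2, and crosses 0 for Cd274.

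Levels were compared between genes as CPM divided by exon length in kilobases (RPKM). Cd274 averaged 7.84 ± 1.97 RPKM in KO and 8.52 ± 0.660 RPKM in WT, and Tox 7.16 ± 0.143 RPKM in KO and 6.51 ± 0.584 RPKM in WT (SD, n = 3 each). These 2 genes overlapped each other and lay above Havcr2, the next in order, in every library. Havcr2 and Lag3 followed at 3.89 ± 0.253 and 3.79 ± 0.496 RPKM in KO and 3.38 ± 0.404 and 3.34 ± 0.948 RPKM in WT (SD, n = 3 each). Tigit, Ctla4, Icos, Pdcd1, Pdcd1lg2 and Foxp3 came after them in order of their level over all libraries, and Tigit lay above Ctla4 in all 6 libraries. Foxp3 averaged 0.916 ± 0.142 RPKM in KO and 0.499 ± 0.240 RPKM in WT, and Pdcd1lg2 1.32 ± 0.128 RPKM in KO and 0.472 ± 0.253 RPKM in WT (SD, n = 3 each). Foxp3 was thus the lowest of the 10 in KO, and in WT the means of these 2 genes differed by less than their spread.

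Because whole colon holds a varying share of T cells, 6 members found mainly on T cells (Pdcd1, Ctla4, Lag3, Tigit, Icos and Foxp3) were also set against the chains of the T cell receptor complex. The summed level of Cd3d, Cd3e, Cd3g and Cd247 was 25.5, 16.9 and 16.5 CPM in colons labelled KO and 22.7, 16.9 and 8.75 CPM in those labelled WT. WT replicate 3, the lowest library for Ctla4, Icos and Foxp3, also had the lowest CD3 level. The summed level of the 6 members was 25.9, 32.8 and 24.0 CPM in KO and 26.1, 20.6 and 13.8 CPM in WT. Per CD3 level this gave 1.02, 1.94 and 1.46 in KO and 1.15, 1.22 and 1.57 in WT. The groups overlapped, with a log2 difference of 0.12 that turned to -0.10 without KO replicate 2. The exact 2-sided permutation test gave p = 0.7, where 3 against 3 cannot go below 0.1.

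Foxp3 had the largest of these relative differences. Per CD3 level it stood at 0.135, 0.266 and 0.281 in colons labelled KO and at 0.146, 0.143 and 0.129 in those labelled WT, a log2 difference of 0.64. KO replicates 2 and 3 lay well above the narrow WT range, and KO replicate 1 lay inside it. Ctla4 per CD3 level averaged 0.243 ± 0.123 in KO and 0.165 ± 0.0499 in WT (SD, n = 3 each), with a log2 difference of 0.48. Pdcd1 (0.06) and Icos (0.12) differed little, and Lag3 (-0.15) and Tigit (-0.04) were lower per CD3 level in KO. For 5 of these 6 members KO replicate 2 held the highest ratio of its group, Foxp3 being the exception.

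**Figure D3:**
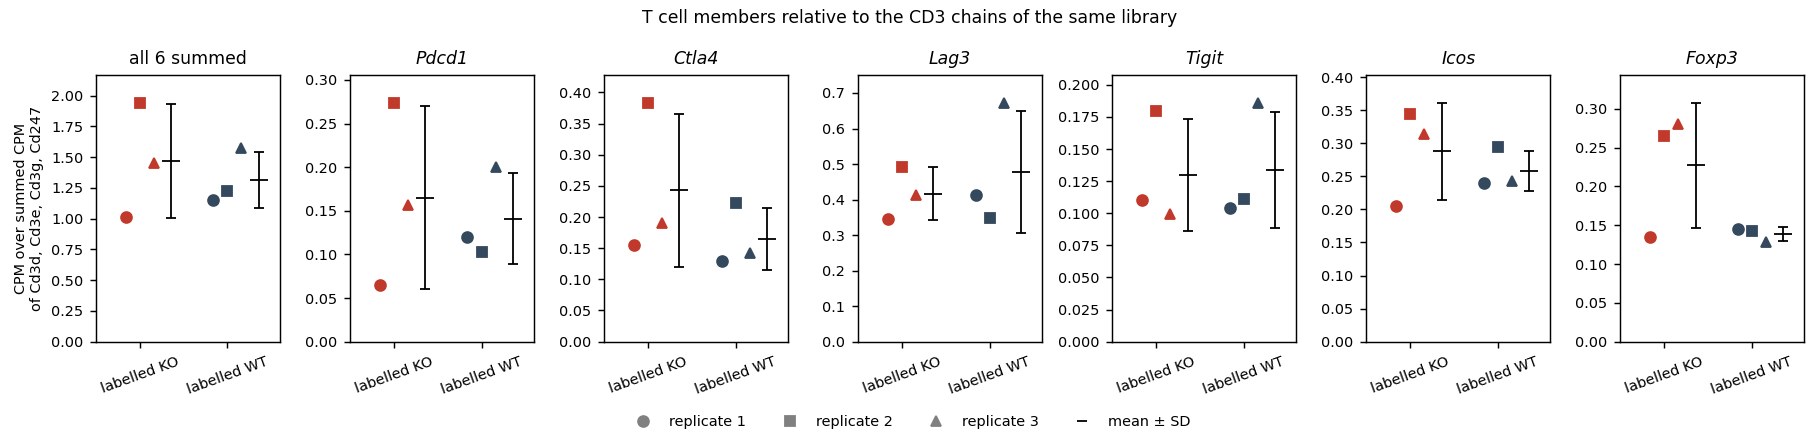
Level of the 6 T cell members, summed and singly, divided by the summed level of the 4 CD3 chains in the same library, with the mean and SD of each group (n = 3). The summed ratio runs from 1.02 to 1.94 in KO and from 1.15 to 1.57 in WT, and Foxp3 stands at 0.266 and 0.281 in 2 KO libraries against 0.129 to 0.146 in WT.

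Markers of other cells moved unevenly over the same libraries. Summed markers of myeloid and dendritic cells, which carry Pdcd1lg2, Cd274 and Havcr2, ran from 391 to 566 CPM in colons labelled KO and from 372 to 489 CPM in those labelled WT. All 11 were counted in every library, and 10 of the 11 had a higher fitted level in KO (median 0.12, log2). Among Y-linked libraries all 11 were higher in KO, and among Xist-high ones most were lower. KO replicate 1 had the highest myeloid sum (566 CPM) and the highest Pdcd1lg2 level, while KO replicate 3 (391 CPM) lay near WT replicate 3 (389 CPM), which held the least Pdcd1lg2. B cell and follicle markers ran from 48.3 to 253 CPM in KO and from 54.8 to 245 CPM in WT, lowest in replicate 3 of both groups. KO replicate 3 thus had the lowest B cell markers together with the highest Foxp3 level. Neutrophil markers stood at 13.0, 72.7 and 85.2 CPM in KO and at 43.5, 12.3 and 5.63 CPM in WT, highest in the 3 Xist-high libraries. Natural killer and innate lymphoid markers summed to no more than 7.79 CPM in any library. Their part in the members' differences was not tested.

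**Figure D4:**
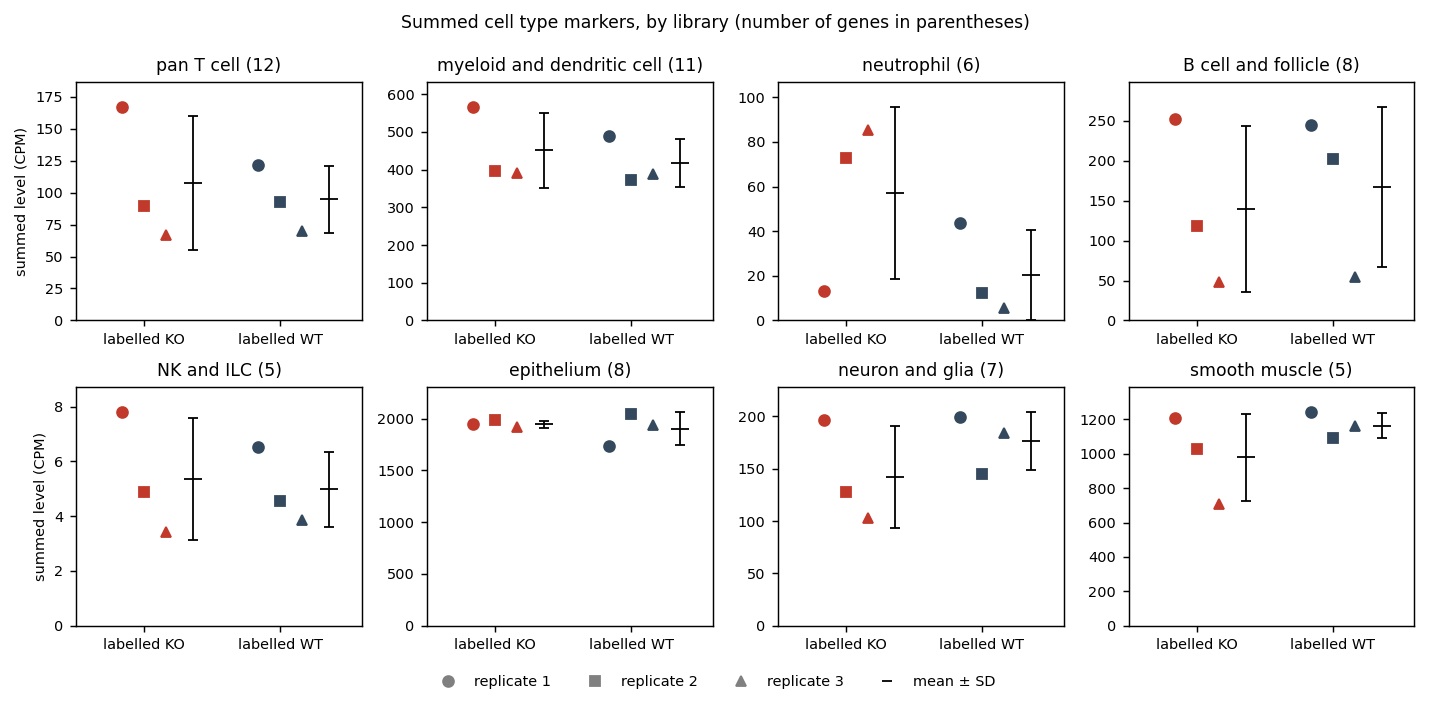
Summed level (CPM) of the markers of 8 cell types in the 6 colon libraries, with the mean and SD of each group (n = 3). The groups overlap in all 8 panels, with B cell markers lowest in replicate 3 of both groups (48.3 CPM in KO, 54.8 CPM in WT) and neutrophil markers between 5.63 and 85.2 CPM.

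Genes that work beside the members were followed through lists, and edgeR called 0 genes in any of them. Of 6 tested costimulatory receptors, all 6 had a higher fitted level in KO, at a median (log2) of 0.38. Within the sets, all 6 were higher among Y-linked libraries, where KO replicate 1 is the only KO library. Among Xist-high libraries all but Tnfrsf9 were lower in KO. Tnfrsf9, which encodes the activation receptor 4-1BB, stood at 2.43, 13.8 and 6.94 CPM in KO and at 4.26, 2.94 and 1.00 CPM in WT, a log2 difference of 1.49 ± 0.75 (SE, edgeR adjusted p = 0.829). Tnfrsf9 was highest in the Xist-high libraries, and differed by 1.19 among these and by 0.48 among Y-linked ones (log2). Cd28, the activating counterpart of CTLA-4, was high in KO replicate 1 alone (19.0 CPM, against 5.04 to 7.38 CPM in the other 5 libraries). Cd27, a receptor of naive and memory T cells, differed by 0.41 ± 0.47 (SE, log2). Pan T cell genes had 9 of 11 tested genes higher in KO and a median of 0.27, beside the members' median of 0.36. All 11 were lower in KO among Xist-high libraries and higher among Y-linked ones. Of the members, Pdcd1lg2, Ctla4, Foxp3, Pdcd1 and Tox were higher in KO among Xist-high libraries. Icos stood at 0.01 there, and Havcr2, Lag3, Tigit and Cd274 were lower. Beyond the ratio of T cell members to CD3 chains, the part of T cell content in the members' differences was not tested.

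Other coinhibitory receptors had 8 of 9 tested members higher in KO, at a median (log2) of 0.20. Most of them, though not Cd244a, were lower in KO among Xist-high libraries, and most were higher among Y-linked ones. Cd244a, which encodes the natural killer and myeloid receptor 2B4, stood at 7.41, 20.2 and 57.5 CPM in KO and at 9.82, 6.82 and 4.75 CPM in WT. It differed by 1.99 ± 0.75 (SE, log2, edgeR adjusted p = 0.829), and KO replicate 1 lay within the WT range. Cd244a was highest in the Xist-high libraries, and differed by 1.79 among these and by 0.38 among Y-linked ones (log2). Cd5, a damper of T cell receptor signals, differed by 0.52 ± 0.46 and Cd200r1, an inhibitory receptor of myeloid cells, by 0.60 ± 0.60 (SE, log2). Among 12 other ligands, 7 were higher and 5 lower in KO, with a median of 0.06. Cd276, which encodes the B7 family member B7-H3, had the smallest p of them, at 34.1, 64.4 and 71.1 CPM in KO and 39.4, 33.4 and 28.9 CPM in WT. Its log2 difference was 0.74 ± 0.29 (SE, edgeR adjusted p = 0.829). Cd276 was likewise highest in the Xist-high libraries, and differed by 0.78 among these and by 0.13 among Y-linked ones (log2). The CTLA-4 ligand Cd86 differed by 0.28 ± 0.28 and the TIM-3 ligand Hmgb1 by 0.25 ± 0.18 (SE, log2).

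The other regulatory T cell genes, taken as a list, did not share the direction of Foxp3: 4 of 12 were higher and 8 lower in KO, at a median (log2) of -0.10. Several of them are also made by other cells of the colon, so the list does not give the direction of regulatory T cells. Nt5e averaged 197 CPM in KO and 215 CPM in WT, where Foxp3 averaged 4.19 and 2.28 CPM, while Gpr83 averaged 1.73 and 4.75 CPM. Il2ra, the high-affinity chain of the interleukin 2 receptor, stood at 7.66, 5.82 and 4.36 CPM in KO and at 5.68, 3.08 and 2.63 CPM in WT, a log2 difference of 0.64 ± 0.38 (SE, edgeR adjusted p = 0.829). Gpr83, a receptor of regulatory T cells and neurons, stood at 3.32, 0.794 and 1.09 CPM in KO and at 8.40, 1.74 and 4.13 CPM in WT, a log2 difference of -1.45 ± 0.75 (SE, edgeR adjusted p = 0.829). That difference was -3.08 among Xist-high libraries, where WT replicate 1 is the only WT library, and 0.30 among Y-linked ones. Enteric neuron and glia markers ran from 103 to 197 CPM in KO and from 145 to 199 CPM in WT, and their part in the Gpr83 difference was not tested. Nt5e, the adenosine-forming enzyme CD73, differed by -0.13 ± 0.07 (SE, log2).

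Exhaustion and T cell fate factors had 9 of 14 tested members higher in KO, at a median (log2) of 0.22. Tcf7, a factor of naive and memory-like T cells that also acts in WNT signalling, stood at 40.5, 67.6 and 109 CPM in KO and at 46.0, 36.2 and 22.9 CPM in WT, a log2 difference of 1.05 ± 0.41 (SE, edgeR adjusted p = 0.829). Its highest levels were those of the Xist-high libraries. Within the sets, KO exceeded WT in Tcf7 by 0.90 among Xist-high libraries and by 0.49 among Y-linked ones (log2). Prdm1, which encodes the effector factor Blimp-1, differed by 0.31 ± 0.17 (SE, log2). Inhibitory signalling genes lay close to the median of all genes, with 4 of 11 higher and a median of -0.05. Ptpn11, the phosphatase SHP-2 that PD-1 recruits, stood at 216, 210 and 229 CPM in KO and at 252, 232 and 247 CPM in WT. Its log2 difference was -0.16 ± 0.06 (SE, edgeR adjusted p = 0.829). Dgkz, a lipid kinase that limits T cell receptor signals, differed by -0.09 ± 0.05, and Rnf128, a ubiquitin ligase of T cell anergy, by 0.20 ± 0.14 (SE, log2).

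The interferon gamma axis, which drives PD-L1, was near balance, with 5 of 9 tested genes higher in KO, at a median (log2) of 0.08. Ifng itself had 3 reads over the 6 libraries and was at 0 in 3 of them, so its level was not measurable at this depth. Gbp2, an interferon-induced GTPase, differed by -0.30 ± 0.19 and the kinase Jak1 by -0.10 ± 0.07 (SE, log2), each with an edgeR adjusted p of 0.829 or above.

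**Figure D5:**
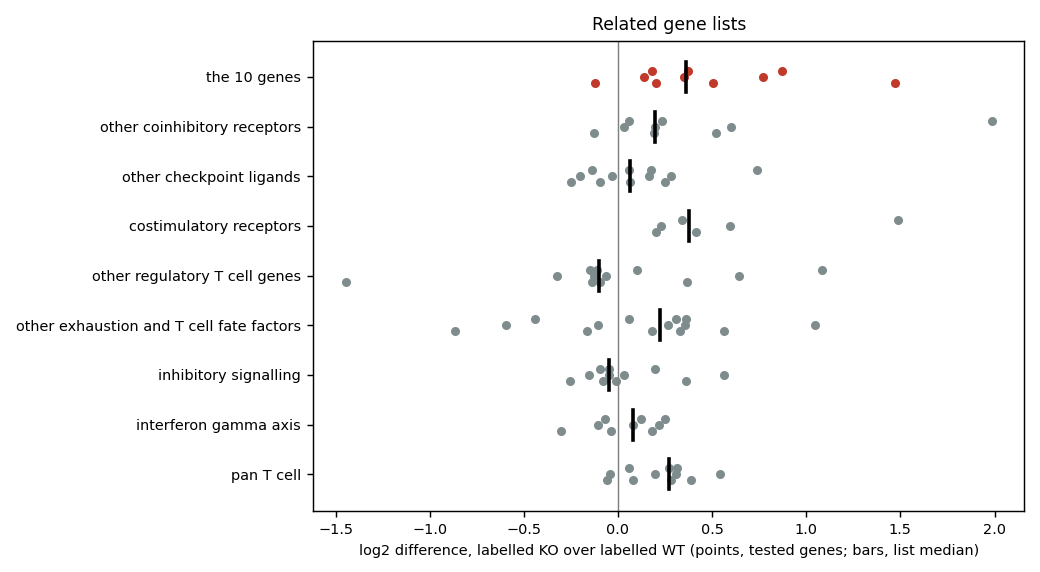
Fitted log2 difference, labelled KO over labelled WT, of every tested gene in the 10-gene group and in 8 related lists (points), with list medians (bars). The median is 0.36 for the 10 genes, 0.38 for costimulatory receptors, 0.27 for pan T cell genes and -0.10 for other regulatory T cell genes.

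Genes with the most similar pattern were found for each member by the root mean square difference of centred log2 CPM over the 6 libraries. Levels were centred over both groups together, so the distance includes the difference between the labels. For Pdcd1lg2 the nearest were Tex12 (0.23), Gm11110 (0.27) and S1pr4 (0.27), and no gene lay within 0.2. Pdcd1lg2 and S1pr4 both had a higher fitted level in KO (log2 differences of 1.47 and 1.78), and a link between them was not tested. For Foxp3 they were Tnfsf14 (0.088), Sytl3 (0.13) and Gm28151 (0.17), among 7 genes within 0.2. Icos lay nearest to Nfkbie (0.13), Cd3g (0.14) and 1110035H17Rik (0.14), and Lag3 to Cd300c2 (0.032), Dpy19l1 (0.062) and Rarg (0.066). For Havcr2 the nearest were Tyrobp (0.037), Nupl2 (0.041) and Fcer1g (0.045), of which Tyrobp and Fcer1g encode signalling adaptors of myeloid and natural killer cells. Pdcd1 lay nearest to Slco4a1 (0.097), Gm16754 (0.11) and Wnt16 (0.12), and Ctla4 to Gm10101 (0.18), Dnaaf3 (0.25) and Sox1ot (0.26). Tigit lay nearest to Gm20632 (0.091), Gm4890 (0.095) and Serpina3g (0.095), and Cd274 to Clasrp (0.044), Cyp4f13 (0.060) and Hexdc (0.061). Tox lay nearest to Ndufaf1 (0.030), Gm5145 (0.031) and Gm11966 (0.033). Havcr2 and Tox varied so little that 5347 genes lay within 0.2 of Havcr2 and 8096 within 0.2 of Tox. Many genes also lay within 0.2 of Cd274 (1844), Lag3 (469) and Tigit (124), and fewer of Icos (14), Pdcd1 (12) and Ctla4 (1).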

How the data were processed

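Read counts per Ensembl gene were deposited as whole numbers with no normalisation, per the file headers. STAR, TopHat2, RSEM, HTSeq and DESeq2 and the builds mm10 and GRCm38 are named in the submitters' processing notes, without versions or roles. Strand use, filters and removal of duplicate reads are not given in the sources used here. Coordinates and exon lengths are from GENCODE on GRCm38. The 6 colon libraries were fitted with edgeR 4.0.16 (filterByExpr, TMM, robust quasi-likelihood F test, R 4.3.3), with Benjamini-Hochberg adjustment over all tested genes and a threshold of 0.05. The fit was tested on simulated data. Levels are TMM-scaled CPM, and within-set differences are means of log2 CPM with 0.5 added to each count. Poisson intervals cover counting error only. Between libraries of a group, chi-square over genes was 5.19 or more for each degree of freedom, above sampling noise, so none repeated another.

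The members, lists and tests were chosen with earlier results of these data known. Named genes are the members, the 3 tested genes with the smallest p in each list that is no cell type marker list, the CD3 chains, Xist, Ddx3y, S1pr4 and the 3 genes most like each member (prior count 2). Genes whose exons overlap a member, and Ifng, were named outside that rule, after their values were seen. Some genes that the rule names are not reported here. Alternatives were other scalings, filters and tools (DESeq2 1.42.0, limma 3.58.1), the replicate number as a block, the Xist or Y set as a covariate and each library left out. The CD8 tables list none of the members and were not analysed further.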

Additional observations from a re-analysis of the deposited data

How the results depend on the processing

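The median log2 difference of the members was above 0 under all 14 alternatives. It was 0.72 in limma-voom with quality weights, ran from 0.18 to 0.57 with each library left out (lowest without KO replicate 2, highest without WT replicate 1), and was 0.24 with the Xist or Y set as a covariate. No member passed the threshold under any of them. edgeR and limma-voom called 0 genes, and DESeq2 called 14. Over all 17195 tested genes, limma-voom gave 4150 an unadjusted p under 0.05, against 870 in edgeR. A mean of at least 50 counts left Havcr2, Lag3, Tox and Cd274, with a median of 0.16, so the other members have no value there. With each library left out, Cd274 ran from -0.32 to 0.051 (without KO replicate 3) and the ratio of T cell members to CD3 chains from -0.10 to 0.37. The ratio was 0.54 with Cd3e alone below the line and 0.17 with Lck alone. The Lck setting was chosen after seeing the data, as was leaving out each summed member in turn (0.05 to 0.27). Same-numbered libraries did not deviate together over all genes (r = -0.0391, 0.214 and -0.233), and the labels give them only a number in common. Such correlations cannot exclude a shared batch. Summed pan T cell markers and summed B cell markers fell from replicate 1 to replicate 3 in both groups. With the replicate block the median was 0.38, 0 genes were called and the ratio stayed at 0.12. Depth limits Pdcd1lg2, Tigit, Pdcd1 and Foxp3 most, with 3 to 35 reads a library, and Ctla4 had 10 reads in WT replicate 3.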
